A study of Mus musculus with 11 samples.

Results

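Mouse embryonic stem (ES) cells that had been differentiated for 4+11 days were compared with the same kind of cells after 4+8 days. The comparison covers 6 of the 11 arrays of the series, chosen by their titles: 3 cultures at 4+11 days (replicates 4, 8 and 12) and 3 cultures at 4+8 days (replicates 1, 2 and 3). All were R1 cells, an established mouse ES cell line kept on a layer of mouse embryonic fibroblasts (feeder cells) and taken towards cells that express nestin by a published 2-stage protocol. The day counts are those of the titles, which do not say what the 4 and the 11 or 8 days stand for. They are read here as 4 days of a first stage in both groups and 11 or 8 days of a second. Per the labels the cultures were independent, and the replicate numbers of the groups do not match, so no culture at 4+11 days is known to be the later stage of one at 4+8 days. The other 5 arrays, of undifferentiated R1 cells (n = 3) and feeder cells (n = 2), entered the fit and serve as a frame for the levels.

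ES cells allowed to aggregate and then plated give rise to cells of all germ layers, among them beating heart muscle, primitive blood, endothelium, endoderm, neural progenitors and neurons. The second stage of nestin protocols uses defined medium in which progenitors holding nestin, an intermediate filament protein of the neural tube and of several other immature tissues, are favoured. The comparison asks which of these RNA programmes differed between the earlier and the later sampling of that stage. RNA was taken from whole cultures, so for every gene below fewer cells of a type and less RNA per cell cannot be told apart.

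Many of the largest falls were of genes of heart muscle and of primitive red cells. The 250 bases before the annotated start of 5 genes that fell in these groups are shown here. These 5 were picked by hand and each holds a marked motif, so they do not stand for all genes that fell. The windows are from RefSeq on GRCm38.p6, written 5′ to 3′ on the gene's strand. Capitals mark the 10 bases of a CArG box, the site of serum response factor, and GATAA in the Myl7 window at chr11:5898783-5899032 (minus strand). In the Mybpc3 window at chr2:91117894-91118143 (plus strand) they mark a MEF2 site and GATAA. In the globin windows they mark GATAA, the core of sites for GATA factors, or its reverse complement TTATC, for Hba-a1 at chr11:32283422-32283671 (plus strand), Hba-x at chr11:32276350-32276599 (plus strand) and Hbb-y at chr7:103853208-103853457 (minus strand). Myl7 is the atrial myosin light chain, Mybpc3 a thick filament protein, Hba-a1 an alpha globin, and Hba-x and Hbb-y are globins of primitive red cells. Each motif was searched on both strands, and no marked motif overlapped another.
Myl7: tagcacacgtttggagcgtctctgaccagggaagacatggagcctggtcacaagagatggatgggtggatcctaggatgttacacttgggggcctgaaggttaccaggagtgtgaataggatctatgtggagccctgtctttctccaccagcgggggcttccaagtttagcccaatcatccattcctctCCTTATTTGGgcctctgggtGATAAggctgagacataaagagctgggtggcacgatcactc
Mybpc3: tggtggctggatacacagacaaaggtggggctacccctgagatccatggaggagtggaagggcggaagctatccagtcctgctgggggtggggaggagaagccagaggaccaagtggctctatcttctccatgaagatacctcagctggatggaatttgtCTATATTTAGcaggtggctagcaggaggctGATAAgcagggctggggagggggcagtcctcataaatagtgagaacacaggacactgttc
Hba-a1: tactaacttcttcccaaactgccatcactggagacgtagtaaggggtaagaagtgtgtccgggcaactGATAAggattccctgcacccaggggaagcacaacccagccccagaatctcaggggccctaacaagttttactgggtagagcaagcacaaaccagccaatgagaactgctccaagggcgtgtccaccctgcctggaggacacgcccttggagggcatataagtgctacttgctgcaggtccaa
Hba-x: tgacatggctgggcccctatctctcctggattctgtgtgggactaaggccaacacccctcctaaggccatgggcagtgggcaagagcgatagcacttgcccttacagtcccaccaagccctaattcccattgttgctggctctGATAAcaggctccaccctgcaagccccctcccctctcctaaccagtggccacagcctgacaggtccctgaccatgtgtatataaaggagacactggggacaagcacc
Hbb-y: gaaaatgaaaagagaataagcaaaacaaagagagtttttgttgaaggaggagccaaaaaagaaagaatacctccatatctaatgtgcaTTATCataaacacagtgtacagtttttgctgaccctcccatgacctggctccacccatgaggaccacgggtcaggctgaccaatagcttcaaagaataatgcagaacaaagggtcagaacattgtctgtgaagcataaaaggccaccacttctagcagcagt
Over the first listed windows of all 27025 genes, GATAA stood in 6221, a MEF2 site in 813 (3.01%) and a CArG box in 378 (1.4%). Of the 18 sarcomere genes tested here that had a window, 7 held GATAA, 5 a CArG box and 1 a MEF2 site, and among the 9 that fell the counts were 3, 1 and 1. Of 12 erythroid genes with a window, 8 held GATAA, as did 3 of the 4 that fell. A match of letters is a description of the window and not evidence of binding.

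Intensities are quantile-normalised values without a unit, and a difference is the mean log2(intensity + 8) at 4+11 days minus that at 4+8 days. Of 8940 probe sets tested, 1094 rose at 4+11 days (12.2%) and 968 fell (10.8%) at an adjusted p below 0.05 in limma. Of the calls 53.1% were thus higher, a share that was 6.27% with the values as deposited (193 higher, 2886 lower) and 73.5% with median scaling (2177 higher, 784 lower), so directions are relative to the bulk of the genes. Over the 6650 genes these shares were 12.5% higher and 10.8% lower, with a median log2 difference of 0.05. The fit shares 1 estimate of the spread among 4 groups, and the SD of a probe set among cultures had a median of 0.26 at 4+11 days and 0.45 at 4+8 days (log2), against 0.20 in undifferentiated and 0.16 in feeder cells. A fit on the 6 arrays alone called 255 probe sets higher (2.85%) and 280 lower (3.13%), and 533 of these 535 were also called by the fit on 11 arrays. The adjusted p of both fits is therefore given for most genes. Leaving out 1 array moved the counts to between 496 higher without 4+11 day replicate 4 and 1275 higher without 4+8 day replicate 3, and to between 473 and 1145 lower for the same arrays.

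The 3 arrays of the 4+8 day group had a scan session and chip lot of their own, and the 4+11 day arrays shared theirs with the undifferentiated and feeder arrays, so session, lot and group cannot be told apart. Deposited trimmed means were 128 to 154 at 4+11 days and 200.1 on each array at 4+8 days. Spearman correlations across probe sets were 0.745 to 0.856 between 4+11 and 4+8 day arrays, 0.807 to 0.857 between 4+11 day and undifferentiated arrays and 0.869 to 0.899 between 4+11 day and feeder arrays. Within groups they were 0.882 to 0.958 at 4+11 days and 0.810 to 0.884 at 4+8 days. The beta-actin 3′ to 5′ ratio was 1.63 ± 0.187 (SD, n = 3) at 4+11 days and 1.94 ± 0.241 (SD, n = 3) at 4+8 days (two-sided exact permutation p = 0.2, where the smallest possible is 0.1). Replicate 12 at 4+11 days was washed under another protocol than replicates 4 and 8, and no wash protocol was given for the 4+8 day arrays. Without replicate 12 and undifferentiated replicate 9, washed likewise, 440 probe sets were called higher and 469 lower. Whether the remaining arrays of the 2 groups were washed alike is not known.

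The levels of each group were also set against the other 8 arrays, which describes where a difference lies in the series but not what it comes from. Of the 1094 probe sets higher at 4+11 days, only the 4+11 day arrays stood apart, above all 8 others, in 88 (8.04%). Only the 4+8 day arrays stood apart, below all 8 others, in 664 (60.7%), and both groups did so in a further 11 (1.01%). Of the 968 lower, only the 4+11 day arrays lay below all others in 53 (5.48%) and only the 4+8 day arrays above all others in 665 (68.7%), with both in a further 24 (2.48%). Among the 6878 probe sets without a call, the shares were 1.5% for 4+11 days and 5.68% for 4+8 days. These are lower in part by construction, because standing apart needs the same separation of the 2 groups that a call favours. Most called differences thus had the 4+8 day arrays at one end of the series. For a gene of a cell type that neither ES cells nor fibroblasts resemble this is also the pattern of RNA present at 4+8 days alone, and the part of the scan session in it was not tested.

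**Figure D1:**
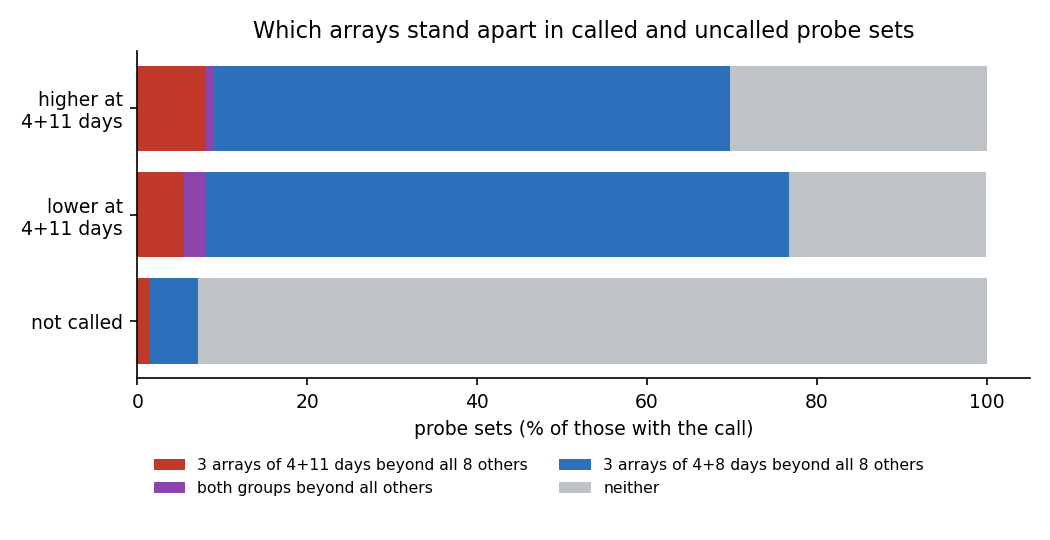
Share of probe sets (%, horizontal axis) called higher, called lower and not called at 4+11 days, split by whether the 3 arrays of 4+11 days, of 4+8 days, both or neither lay beyond all other arrays. The 4+8 day arrays alone stood apart in 60.7% of the higher and 68.7% of the lower probe sets, against 5.68% of those without a call, a contrast set in part by the call itself.

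Genes of the heart's contractile apparatus were lower at 4+11 days. Of the 19 tested of 25 listed sarcomere genes, 9 fell and none rose, beside 10.8% lower and 12.5% higher over all genes, with 11 lower and 0 higher at an unadjusted p below 0.05, and 18 of the 19 had a negative difference. The median log2 difference of the list was −1.29, against 0.05 over all genes, and it stayed below that of all genes in each of 4 other scalings. Values are given in the order of replicates 4, 8 and 12 at 4+11 days and replicates 1, 2 and 3 at 4+8 days. Myl7 had 198, 37.3 and 233 at 4+11 days, against 2152, 1600 and 1069 at 4+8 days. The lowest 4+8 day culture was several times above the highest 4+11 day culture, and both undifferentiated and feeder cells read at most 27.3. Myl7 fell by 3.57 on the log2 scale (SE 0.60, adjusted p = 0.00447, and 0.0388 in the fit on 6 arrays).

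Myl4, the atrial essential light chain, read 261, 70.1 and 278 at 4+11 days and 2037, 880.1 and 1145 at 4+8 days. It fell by 2.81 (SE 0.49, adjusted p = 0.00501, 6 arrays 0.0433). Replicate 8 was the lowest of the 4+11 day cultures in both light chains, and in 17 of the 19 sarcomere genes. A second Myl4 probe set had a log2 difference of −0.68 without a call (adjusted p = 0.234). Mybpc3 read 93.0, 19.2 and 78.7 at 4+11 days and 418, 260 and 336 at 4+8 days, a log2 difference of −2.46 (SE 0.54, adjusted p = 0.0125, 6 arrays 0.0454). Csrp3, a Z-disc protein, had 88.4, 56.0 and 57.3 at 4+11 days against 573, 264 and 175 at 4+8 days, a difference of −2.06 (SE 0.36, adjusted p = 0.00526, 6 arrays 0.0476). In all 4 genes the groups did not overlap.

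The myosin heavy chains were lower as well. Myh7, the slow heavy chain, read by a probe set of a type that can also bind related sequences, had 562, 90.2 and 521 at 4+11 days and 4381, 1589 and 2888 at 4+8 days. It fell by 3.14 (SE 0.62, adjusted p = 0.00787), and the fit on 6 arrays gave 0.0544. Myh6, the fast cardiac heavy chain, had 275, 76.2 and 225 at 4+11 days and 1517, 625 and 523 at 4+8 days, a difference of −2.18 (SE 0.57, adjusted p = 0.0232, 6 arrays 0.0701). Tnnt2, cardiac troponin T, had 289, 93.2 and 192 at 4+11 days and 1459, 463 and 606 at 4+8 days, a difference of −2.05 (SE 0.48, adjusted p = 0.015, 6 arrays 0.0703). Replicate 1 was the highest 4+8 day culture in all 3 genes, and no 4+11 day culture reached the lowest 4+8 day one. Tnni1 and Tnnc1, troponins of slow and cardiac muscle, also fell, by 1.78 and 1.70, with 6-array adjusted p of 0.062 and 0.123.

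Not every heart gene was called. Actc1, cardiac actin, had 1727, 659 and 1322 at 4+11 days and 3263, 1456 and 2142 at 4+8 days, and the groups overlapped (log2 difference −0.91, adjusted p = 0.148). A second Actc1 probe set did not overlap but was not called either (−2.13, adjusted p = 0.0534). Myl2, the ventricular light chain, had 454, 87.9 and 425 at 4+11 days and 847, 167 and 518 at 4+8 days, again with overlap (−0.68, adjusted p = 0.483). At 4+11 days Myl2 still stood far above undifferentiated cells, which read 4.65 to 4.90. Tpm1, a tropomyosin that fibroblasts also carry, was the only tested member with a positive difference (0.31, adjusted p = 0.485). Summed over 8 cardiomyocyte markers, the level was 2753 ± 1420 (SD, n = 3) at 4+11 days and 10569 ± 4658 (SD, n = 3) at 4+8 days, with no overlap (exact permutation p = 0.1, the smallest possible). Only Myl7 and Myl4 of the 9 kept their call in every alternative fit, and leaving out 1 array ended the call of Myh6, Tnni1 or Tnnc1. In the fit on 6 arrays 4 of the 9 calls remained.

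Of 18 tested genes of cardiac calcium handling, metabolism and hormones, 4 fell and none rose, beside 10.8% and 12.5% of all genes, and without 4+11 day replicate 4 the number was 2. Cox6a2, the heart and muscle subunit of cytochrome oxidase, had 121, 55.8 and 226 at 4+11 days and 974, 391 and 844 at 4+8 days and fell by 2.48 (SE 0.47, adjusted p = 0.00628, 6 arrays 0.0496). Cox8b, another muscle subunit, fell by 1.6 (SE 0.21, adjusted p = 0.00187, 6 arrays 0.0245), with 58.0, 73.5 and 65.8 at 4+11 days and 230.1, 219 and 197 at 4+8 days. Among the 13 tested cardiac transcription factors, Isl1, a factor of heart progenitors and of motor neurons, fell by 1.31 (adjusted p = 0.0086, 6 arrays 0.0656) and Mef2a rose by 1.32 (adjusted p = 0.0168, 6 arrays 0.0853). Gata4 had 84.0, 77.9 and 68.0 at 4+11 days and 69.5, 20.4 and 46.0 at 4+8 days, with overlap and no call (adjusted p = 0.209). Nkx2-5 did not pass the filter on low values.

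**Figure D2:**
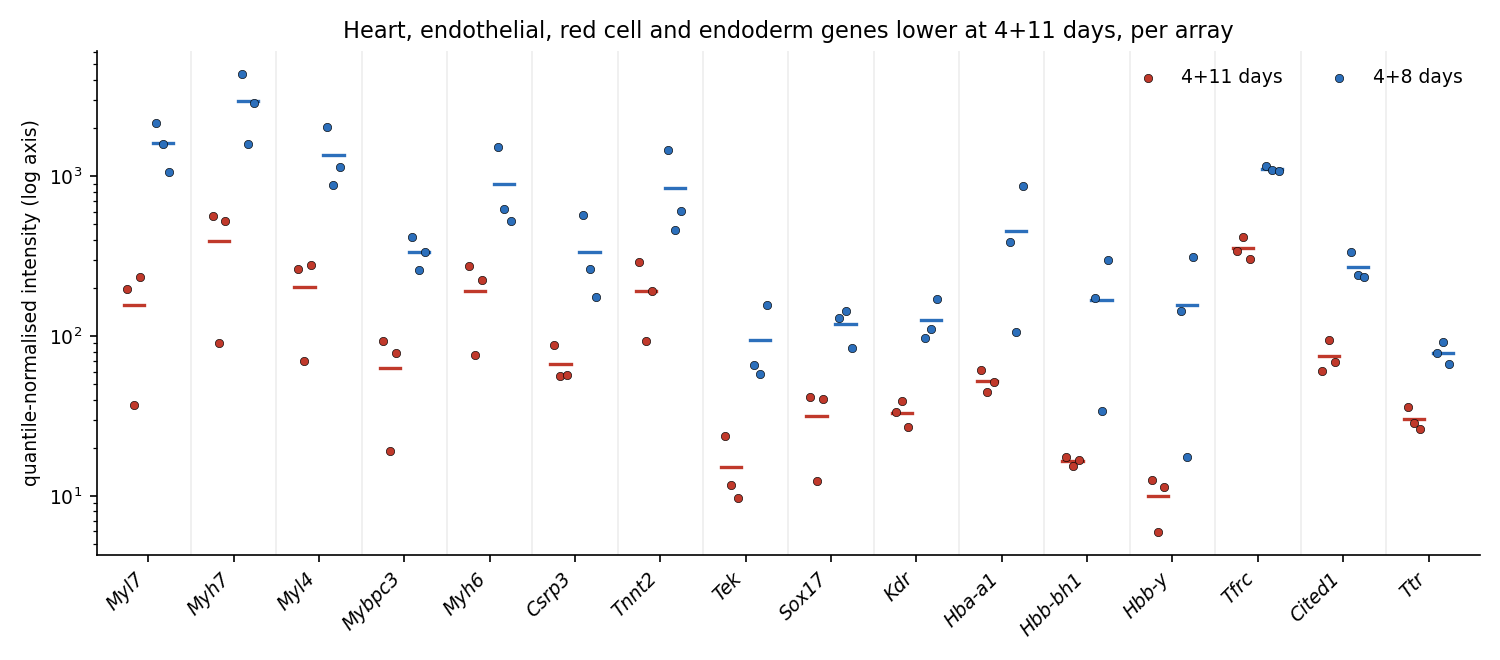
Quantile-normalised intensity (log axis) of 16 genes that were lower at 4+11 days, with 4+11 days at the left and 4+8 days at the right of each gene. Points are single arrays (n = 3 each) and bars are means; no 4+11 day array of any of these genes reached the lowest 4+8 day array.

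Of 16 tested erythroid genes 6, among them 4 globins, fell at 4+11 days and none rose, beside 10.8% lower and 12.5% higher over all genes, and the list's median was −0.17, with 7 lower and 0 higher at an unadjusted p below 0.05. Globin probe sets can bind near-identical globins, so each value may include a relative. Hba-a1 had 61.4, 44.7 and 51.5 at 4+11 days and 385, 106 and 869 at 4+8 days. It fell by 2.5 (SE 0.59, adjusted p = 0.0155, 6 arrays 0.0737). Replicate 2 was the lowest of the 4+8 day cultures for all 4 globins and still stood above every 4+11 day culture. Hbb-bh1, a beta globin of primitive red cells, had 17.6, 15.5 and 16.9 at 4+11 days and 172, 34.2 and 298 at 4+8 days, a difference of −2.43 (SE 0.56, adjusted p = 0.0147, 6 arrays 0.0775). Hbb-y and Hba-x fell by 2.60 and 1.92, with 6-array adjusted p of 0.107 and 0.087.

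Tfrc, the transferrin receptor that brings iron into dividing cells and red cell precursors, was the steadiest of the 6. It had 339, 417 and 305 at 4+11 days and 1152, 1093 and 1081 at 4+8 days and fell by 1.64 (SE 0.17, adjusted p = 0.000856, 6 arrays 0.0245). A second Tfrc probe set did not move (log2 difference 0.07, adjusted p = 0.838), so the 2 probe sets disagree. Ank1, the red cell ankyrin that heart and muscle also express, fell by 1.89 (SE 0.34, adjusted p = 0.00583, 6 arrays 0.0345). Gata1, the red cell transcription factor, read 28.6, 27.1 and 20.9 at 4+11 days and 8.63, 27.8 and 19.6 at 4+8 days, within the 27.7 to 40.2 of undifferentiated cells or below it. Ank1 and Tfrc kept their calls in every alternative fit, and leaving out 1 array ended those of Hba-x or Hbb-y.

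Of 22 tested endothelial genes 9 fell at 4+11 days and 2 rose, beside 10.8% and 12.5% of all genes, with a median of −0.69 and 7 positive differences. Kdr, the main VEGF receptor, had 33.4, 39.3 and 26.9 at 4+11 days and 97.7, 112 and 171 at 4+8 days. It fell by 1.68 (SE 0.25, adjusted p = 0.00325, 6 arrays 0.0347). Tek, the angiopoietin receptor, had 23.8, 11.7 and 9.78 at 4+11 days and 66.2, 58.2 and 158 at 4+8 days and fell by 2.06 (SE 0.37, adjusted p = 0.00549, 6 arrays 0.0438). The 4+11 day levels of Tek lay within or below the 14.3 to 25.0 of undifferentiated cells, and those of Kdr stayed above their 9.65 to 20.3. Sox17 and Sox18, factors of early endothelium, fell by 1.76 and 1.35 (adjusted p = 0.00787 and 0.0146, 6 arrays 0.0547 and 0.0814), and a second Sox18 probe set had −0.66 without a call (adjusted p = 0.178).

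Cdh5, the adhesion protein that defines endothelial junctions, did not move with them. It had 62.8, 58.0 and 108 at 4+11 days and 74.4, 95.6 and 115 at 4+8 days, with overlap (log2 difference −0.32, adjusted p = 0.448), and at most 3.44 in undifferentiated cells. Pecam1 had 52.6, 28.1 and 48.2 at 4+11 days and 119, 24.6 and 96.4 at 4+8 days, again with overlap (adjusted p = 0.348). Ets1, expressed in endothelium and in mesenchyme, rose by 1.10 (adjusted p = 0.0114, 6 arrays 0.0645), though a second Ets1 probe set did not (−0.20, adjusted p = 0.537). Only Kdr and Tek kept their calls in every alternative fit and in the fit on 6 arrays. Without 4+11 day replicate 4 the number of endothelial genes that fell was 3.

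Of 26 tested genes of visceral endoderm and liver 5 fell at 4+11 days and none rose, beside 10.8% lower and 12.5% higher over all genes, with a median of −0.89 and 18 of 26 negative. Cited1, a transcriptional cofactor, had 60.9, 94.2 and 68.8 at 4+11 days and 335, 242 and 234 at 4+8 days and fell by 1.75 (SE 0.31, adjusted p = 0.00526, 6 arrays 0.0291). Ttr, the carrier of thyroid hormone and retinol, had 36.1, 28.6 and 26.4 at 4+11 days and 78.3, 91.6 and 66.7 at 4+8 days and fell by 1.18 (adjusted p = 0.0357, 6 arrays 0.0426). Leaving out 1 array ended the calls of Ttr or Apoa2, an apolipoprotein, and the list's count ran from 3 without 4+11 day replicate 4 to 9 without 4+8 day replicate 2. Afp, the fetal serum protein of endoderm, had 23.2, 16.2 and 25.1 at 4+11 days and 78.0, 20.5 and 58.0 at 4+8 days, with overlap and no call (adjusted p = 0.159). Among 25 tested epithelial genes 4 fell and 1 rose, beside 10.8% lower and 12.5% higher over all genes. Their median was −0.56 and 15 of 25 differences were negative, with 2 falls left without 4+8 day replicate 1. At an unadjusted p below 0.05 in limma, 7 were lower and 1 higher. Cdh1, E-cadherin, read 103, 108 and 114 at 4+11 days and 206, 224 and 212 at 4+8 days, a difference of −0.93 (SE 0.15, adjusted p = 0.00403, 6 arrays 0.0486).

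Cdh2, N-cadherin, the adhesion protein of neural and mesenchymal cells, was higher at 4+11 days than on any other array of the series. It had 1198, 1131 and 937 at 4+11 days and 218, 299 and 176 at 4+8 days, with 85.7 to 101 in undifferentiated and 287 to 309 in feeder cells. It rose by 2.22 (SE 0.21, adjusted p = 0.000572, 6 arrays 0.0236) and kept its call in every alternative fit. In 77 genes that rose the 4+11 day arrays stood above all 8 others, and Cdh2 and the genes of the next 2 paragraphs other than Etv4 were taken from them after their values were seen. By that choice their 4+11 day values exceed the 5 other arrays of the same scan session as well as the 4+8 day arrays. The part of the session in their difference from 4+8 days was not tested.

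Hmga2, a chromatin protein of growing embryonic mesenchyme and progenitors, had 2420, 1719 and 3119 at 4+11 days and 293, 838 and 242 at 4+8 days. It rose by 2.56 (SE 0.47, adjusted p = 0.00599, 6 arrays 0.0424), against 543 to 884 in undifferentiated and 670.3 and 1405 in feeder cells. Plat, tissue plasminogen activator, a secreted protease made by migrating neural crest and neurons, had 1145, 1339 and 1005 at 4+11 days and 235, 329 and 171 at 4+8 days. It rose by 2.25 (SE 0.28, adjusted p = 0.00134, 6 arrays 0.0245). Every 4+11 day culture exceeded the highest feeder value of Plat, 652. Cd200, a surface glycoprotein of neurons, lymphocytes and endothelium, read 182, 119 and 152 at 4+11 days and 14.6, 26.3 and 34.4 at 4+8 days, a rise of 2.29 (SE 0.26, adjusted p = 0.000978, 6 arrays 0.0245).

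Dusp6, a phosphatase that FGF and ERK signalling induces and that acts back on ERK, had 745, 511 and 948 at 4+11 days and 206, 248 and 99.3 at 4+8 days. It rose by 2.0 (SE 0.33, adjusted p = 0.00411, 6 arrays 0.0433), while Etv4, another gene induced by FGF, fell by 1.45 on one probe set (adjusted p = 0.00159) and had 0.70 on the other (adjusted p = 0.103). Ednrb, the endothelin receptor of neural crest and astrocytes, had 45.7, 61.8 and 34.8 at 4+11 days and 3.08, 24.4 and 8.24 at 4+8 days, a rise of 1.59 (adjusted p = 0.0226, 6 arrays 0.0706). Foxq1, a forkhead factor, had 42.8, 32.1 and 42.4 at 4+11 days and at most 10.2 on the other 8 arrays, and rose by 1.57 (SE 0.19, adjusted p = 0.00134, 6 arrays 0.0291). The groups did not overlap in any of these genes, save on the second Etv4 probe set. Cdh2, Hmga2, Plat, Cd200 and Dusp6 kept their calls in every alternative fit. With the values as deposited, without normalization, Ednrb and Foxq1 were not called, and Ednrb was not called without 4+11 day replicate 4 or 8 or 4+8 day replicate 1.

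The largest rises of all were of another kind. Emp1, an epithelial membrane protein also made by fibroblasts, had 2651, 1883 and 4000 at 4+11 days and 254, 124 and 385 at 4+8 days. It rose by 3.51 (SE 0.40, adjusted p = 0.000926, 6 arrays 0.0245), but undifferentiated cells had 2026 to 3002 and feeder cells 6067 and 6543, so the 4+8 day cultures stood below every other group. Thy1, a surface marker of fibroblasts and neurons, rose by 3.48 (SE 0.54, adjusted p = 0.00353, 6 arrays 0.0351) with 217, 484 and 109 at 4+11 days, 31.8, 6.97 and 7.78 at 4+8 days and 654 to 2308 in the other groups. Xrn1, an RNA exonuclease, had 93.8, 80.4 and 75.8 at 4+11 days and 2.04, 2.04 and 3.66 at 4+8 days, with 85.7 to 115 elsewhere. Nav1, a microtubule-binding protein of neurons, likewise had 89.0 to 106 at 4+11 days, 4.36 to 7.16 at 4+8 days and 92.1 to 113 elsewhere. The 3 non-4+8 groups were nearly level in Xrn1 and Nav1, and whether the session or lot of the 4+8 day arrays sets these differences was not tested.

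**Figure D3:**
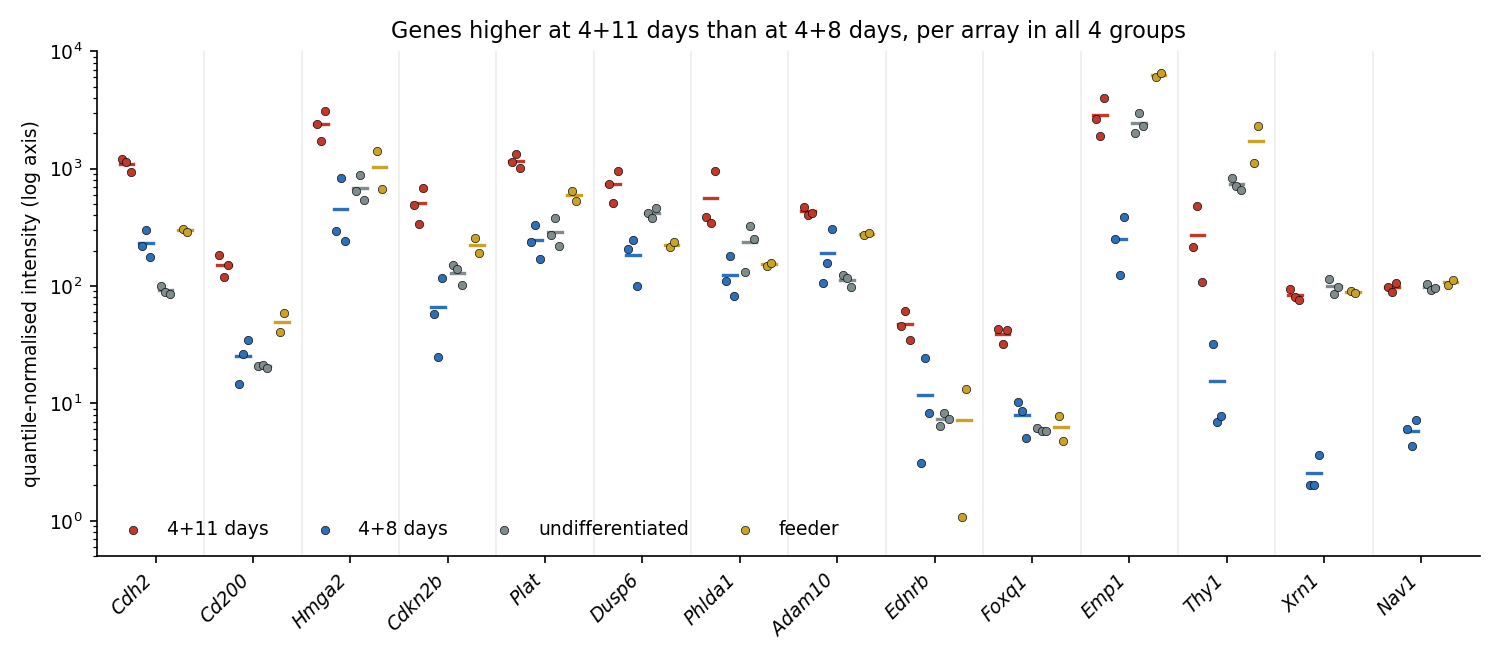
Quantile-normalised intensity (log axis) of 14 genes that rose, in the order 4+11 days, 4+8 days, undifferentiated and feeder within each gene; points are arrays and bars are means. From Cdh2 to Foxq1 the 4+11 day arrays lie above all others, and from Emp1 to Nav1 the 4+8 day arrays lie below all others.

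Prostaglandin genes were among the 12 largest rises. Ptgs2, the inducible cyclooxygenase, had 298, 92.5 and 1140 at 4+11 days and 15.9, 28.3 and 64.8 at 4+8 days and rose by 3.04 (SE 0.83, adjusted p = 0.0276, 6 arrays 0.0814). Ptger4, a receptor for prostaglandin E2, had 181, 35.2 and 193 at 4+11 days and 2.46, 16.2 and 5.66 at 4+8 days, a rise of 2.96 (SE 0.59, adjusted p = 0.00826, 6 arrays 0.0477). Arg1, the arginase of liver and of some macrophages, rose by 3.04 (SE 0.81, adjusted p = 0.025, 6 arrays 0.049) and Mgp, an inhibitor of calcification made by mesenchyme, by 2.97 (SE 0.69, adjusted p = 0.0144, 6 arrays 0.0345). Replicate 8 was the lowest 4+11 day culture in all 4 genes and replicate 12 the highest. In Ptgs2, Ptger4 and Mgp the 4+8 day arrays lay below all others of the series. Undifferentiated and feeder arrays had 103 to 503 of Ptgs2, 21.3 to 99.8 of Ptger4 and 78.8 to 1572 of Mgp. In Arg1 neither group stood apart, and undifferentiated cells had 3.11 to 79.4. Without 4+11 day replicate 4 or 12, Ptgs2, Arg1 and Mgp were no longer called.

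Of 23 tested G1 cyclins, CDK inhibitors and p53 targets 7 rose and 2 fell at 4+11 days, beside 12.5% and 10.8% of all genes, and the list's median was 0.31. Cdkn2b, the CDK4 and CDK6 inhibitor p15, had 493, 339 and 684 at 4+11 days and 57.6, 24.8 and 117 at 4+8 days. It rose by 2.94 (SE 0.44, adjusted p = 0.00321, 6 arrays 0.0359), and the 4+11 day cultures also exceeded undifferentiated (102 to 150.3) and feeder cells (191 and 256). Mdm2 and Ccng1, both induced by p53, rose by 1.69 and 1.34 (adjusted p = 0.0238 and 0.011, 6 arrays 0.0644 and 0.0603). Ccng2, Rbl2, Btg1 and Rb1, which restrain proliferation in many cells, rose by 1.47, 1.35, 0.79 and 0.74 (adjusted p = 0.0408, 0.0332, 0.0427 and 0.0377, 6 arrays 0.12, 0.103, 0.107 and 0.115). Btg2, a relative of Btg1 that p53 induces and that restrains proliferation as well, fell by 0.72 (adjusted p = 0.0412, 6 arrays 0.118), with 456, 457 and 501 at 4+11 days and 937, 604 and 849 at 4+8 days. Ccnd3, a D cyclin, fell by 1.11 (adjusted p = 0.0207, 6 arrays 0.0981). Cdkn1a, p21, had 613, 562 and 813 at 4+11 days and 532, 748 and 1339 at 4+8 days, with overlap (−0.31, adjusted p = 0.537), and its second probe set had the opposite sign without a call (0.73, adjusted p = 0.0964).

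Cdkn2b alone of the 9 kept its call in every alternative fit, and leaving out 1 array ended the call of 7 of the 9, all but Cdkn2b and Ccng1, with 2 rises left without 4+11 day replicate 12. With the values as deposited Rb1 had the opposite sign, −0.11. Of 36 tested mitosis genes none was called by limma in either direction, beside 12.5% higher and 10.8% lower over all genes. At an unadjusted p below 0.05, 2 were higher and 3 lower. The median was −0.03, which lay above that of all genes with the values as deposited and with median scaling. Mki67, a marker of cycling cells, had 445, 581 and 308 at 4+11 days and 384, 328 and 254 at 4+8 days (log2 difference 0.43, adjusted p = 0.362). A second, dimmer Mki67 probe set, which is not in that count, was called lower, with 21.0, 18.1 and 21.4 at 4+11 days and 36.0, 37.5 and 37.6 at 4+8 days (−0.68, adjusted p = 0.0419, 6 arrays 0.0905), so the 2 probe sets disagree. Cdk1, the mitotic kinase, had 657, 808 and 430.2 at 4+11 days and 1087, 878 and 819 at 4+8 days, with no overlap but no call (−0.59, adjusted p = 0.139). Among 41 tested replication genes 2 rose and 2 fell, beside the same 12.5% and 10.8% of all genes, and each of these calls ended when some 1 array was left out. Replicate 8 was the highest 4+11 day culture in 34 of the 36 mitosis genes and 37 of the 41 replication genes, beside 41.2% of all genes.

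Nestin itself was not called. Nes had 397, 599 and 385 at 4+11 days and 233, 417 and 195 at 4+8 days, with 165 to 216 in undifferentiated and 351 and 573 in feeder cells. The groups overlapped through replicate 2 at 4+8 days, and the log2 difference was 0.74 (SE 0.32, adjusted p = 0.117). Of 33 tested genes of neural progenitors and patterning 3 rose and 3 fell, beside 12.5% and 10.8% of all genes, with a median of 0.03. Leaving out 4+11 day replicate 12 gave 5 rises, and leaving out replicate 4 gave 1 fall. Sox1, Pax6 and Sox2, which mark the early neural tube, had log2 differences of 0.24, 0.28 and 0.53 with adjusted p of 0.765, 0.785 and 0.743. The SE of 1.02 for Sox2 came from the cultures, which had 425, 2106 and 151 at 4+11 days and 431, 1342 and 74.3 at 4+8 days.

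Sox3, a factor of proliferating neural progenitors, had 43.7, 94.2 and 28.6 at 4+11 days and 216, 232 and 106 at 4+8 days and fell by 1.66 (adjusted p = 0.0154, 6 arrays 0.078), and a second probe set had −0.61 without a call (adjusted p = 0.277). Mdk, midkine, a secreted growth factor of embryonic neural tissue, had 966, 1747 and 661 at 4+11 days and 3181, 3002 and 1770 at 4+8 days and fell by 1.3 (adjusted p = 0.0321, 6 arrays 0.104). Pbx3, also on the list, fell by 1.05 (adjusted p = 0.0254, 6 arrays 0.0959), and its other probe sets had −0.79 and −0.53 without a call. Shh, the ligand that patterns the ventral neural tube and gut, is not on that list. It had 34.99, 50.1 and 20.5 at 4+11 days and 313, 415 and 91.2 at 4+8 days. Shh fell by 2.52 (SE 0.60, adjusted p = 0.0159, 6 arrays 0.0523), to within or near the 8.63 to 46.8 of undifferentiated cells. Its call ended in 2 of the fits that left out 1 array. Notch1 rose by 1.15 (SE 0.17, adjusted p = 0.00279, 6 arrays 0.0424), with 161, 167 and 155 at 4+11 days and 56.9, 68.5 and 80.7 at 4+8 days. Undifferentiated cells, at 104 to 108 of Notch1, lay between, and a second Notch1 probe set had a difference of 0.16 (adjusted p = 0.812).

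Of 46 tested neuronal genes 2 rose and 4 fell, fewer than the 12.5% and 10.8% of all genes, and the median was −0.21. Leaving out 1 array gave 0 rises and 2 falls without 4+11 day replicate 4 and 4 rises without 4+11 day replicate 12. Tubb3, the neuronal beta tubulin, had 1089, 2420 and 923 at 4+11 days and 1655, 2037 and 684 at 4+8 days (log2 difference 0.03, adjusted p = 0.974). Syn2, a synaptic vesicle protein, fell by 1.53 (adjusted p = 0.00759, 6 arrays 0.0535). Slc12a5, the potassium-chloride transporter of maturing neurons, is not on that list and fell by 2.40 (SE 0.30, adjusted p = 0.00134, 6 arrays 0.0259). Slc12a5 had 7.16, 19.4 and 4.72 at 4+11 days and 97.8, 88.3 and 69.0 at 4+8 days, with 29.8 to 42.4 in undifferentiated cells. Scg2, a granin of neuroendocrine vesicles, rose by 1.0 to levels above all other arrays (adjusted p = 0.0307, 6 arrays 0.0737), and leaving out 4+11 day replicate 4 or 8 or 4+8 day replicate 1 or 3 ended that call.

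Of 13 tested genes of dopamine neurons 2 rose and 3 fell, beside 12.5% and 10.8% of all genes. Th, tyrosine hydroxylase, the first enzyme of dopamine synthesis, had 21.1, 40.01 and 26.8 at 4+11 days and 129, 107 and 72.1 at 4+8 days and fell by 1.57 (SE 0.35, adjusted p = 0.0129, 6 arrays 0.0424). Pitx3, a factor of midbrain dopamine neurons, of lens and of muscle, had 11.7, 11.2 and 8.86 at 4+11 days and 69.9, 54.0 and 62.6 at 4+8 days and fell by 1.91 (SE 0.21, adjusted p = 0.000914, 6 arrays 0.0222). No 4+11 day culture of either gene stood above the highest undifferentiated or feeder array. En1, a midbrain and hindbrain homeobox gene, rose by 2.28 and Wnt5a, a secreted signal of the midbrain floor and of mesenchyme, by 2.66 (adjusted p = 0.00626 and 0.000787, 6 arrays 0.0486 and 0.0236). Wnt5a had 70.7, 110.2 and 47.0 at 4+11 days, 3.13, 4.19 and 6.91 at 4+8 days and 39.5 to 142 elsewhere, so the 4+8 day arrays were the ones apart. Nr4a2, the orphan receptor needed for dopamine neurons, overlapped between groups (adjusted p = 0.62). Leaving out 4+11 day replicate 4 ended the call of Th.

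Of 13 tested glial genes 2 fell and none rose, beside 10.8% lower and 12.5% higher over all genes. Aldoc, the aldolase of astrocytes and of embryonic tissues, had 62.4, 12.8 and 53.5 at 4+11 days and 301, 155 and 249 at 4+8 days and fell by 2.39 (SE 0.48, adjusted p = 0.00854, 6 arrays 0.0467). Glul, glutamine synthetase, fell by 0.94 on the probe set that stands for it and by 0.84 on a second (adjusted p = 0.0229 and 0.0197, 6 arrays 0.0992 for the first). Gfap, the filament of mature astrocytes, had 10.8, 31.0 and 28.7 at 4+11 days and 9.87, 47.0 and 24.9 at 4+8 days (adjusted p = 0.919). Its levels lay within the 8.63 to 45.8 of undifferentiated cells or next to them.

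Fabp7, the fatty acid binding protein of radial glia, had 543, 4700 and 31.7 at 4+11 days and 411, 1320 and 22.2 at 4+8 days. One culture in each group was thus high, replicate 8 at 4+11 days and replicate 2 at 4+8 days, and one in each, replicate 12 and replicate 3, was below the feeder level of 65.5 to 67.1. Replicate 8 was the highest 4+11 day culture in 30 of 33 neural progenitor genes and 40 of 46 neuronal genes, beside 41.2% of all 6650 genes. Replicate 2 was the highest 4+8 day culture in 24 of the 33 and 30 of the 46, beside 37.3% of all genes.

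Macrophage genes ran the other way in the same cultures. C1qb, a complement subunit made by macrophages, had 1093, 157 and 2046 at 4+11 days and 374, 7.40 and 858 at 4+8 days (log2 difference 2.07, adjusted p = 0.301), and a second probe set had −0.11 (adjusted p = 0.825). Lyz2, lysozyme, had 1711, 139.8 and 3873 at 4+11 days and 821, 3.86 and 966 at 4+8 days. Replicate 8 was the lowest 4+11 day culture in 43 of 44 tested macrophage and myeloid genes, and replicate 2 the lowest 4+8 day culture in 38, beside 36.3% and 35.5% of all genes. The summed level of 7 macrophage markers was 4739 ± 3818 (SD, n = 3) at 4+11 days and 2268 ± 2365 (SD, n = 3) at 4+8 days (exact permutation p = 0.4). Tyrobp, the adaptor protein of myeloid receptors, had 878, 126 and 1396 at 4+11 days and 534, 15.6 and 1127 at 4+8 days (adjusted p = 0.545).

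In macrophage genes 36 of 44 differences were positive and the median was 0.86. Yet none rose in limma (3 at an unadjusted p below 0.05) and 2 fell, beside 12.5% higher and 10.8% lower over all genes. These 2, Cd83 and Ccl6, fell by 1.21 and 1.15 (adjusted p = 0.00842 and 0.0472, 6 arrays 0.0571 and 0.15). Without 4+11 day replicate 8 the number of macrophage genes that rose was 7. Among the 19 sarcomere genes replicate 8 was the lowest 4+11 day culture in 17 and replicate 2 the lowest 4+8 day culture in 13, beside the same 36.3% and 35.5% of all genes. With replicate 8 set aside, the Myl7 values of 198 and 233 lay below the 1069 of the lowest 4+8 day culture. Whether the makeup of the cultures sets the heart difference was not tested.

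**Figure D4:**
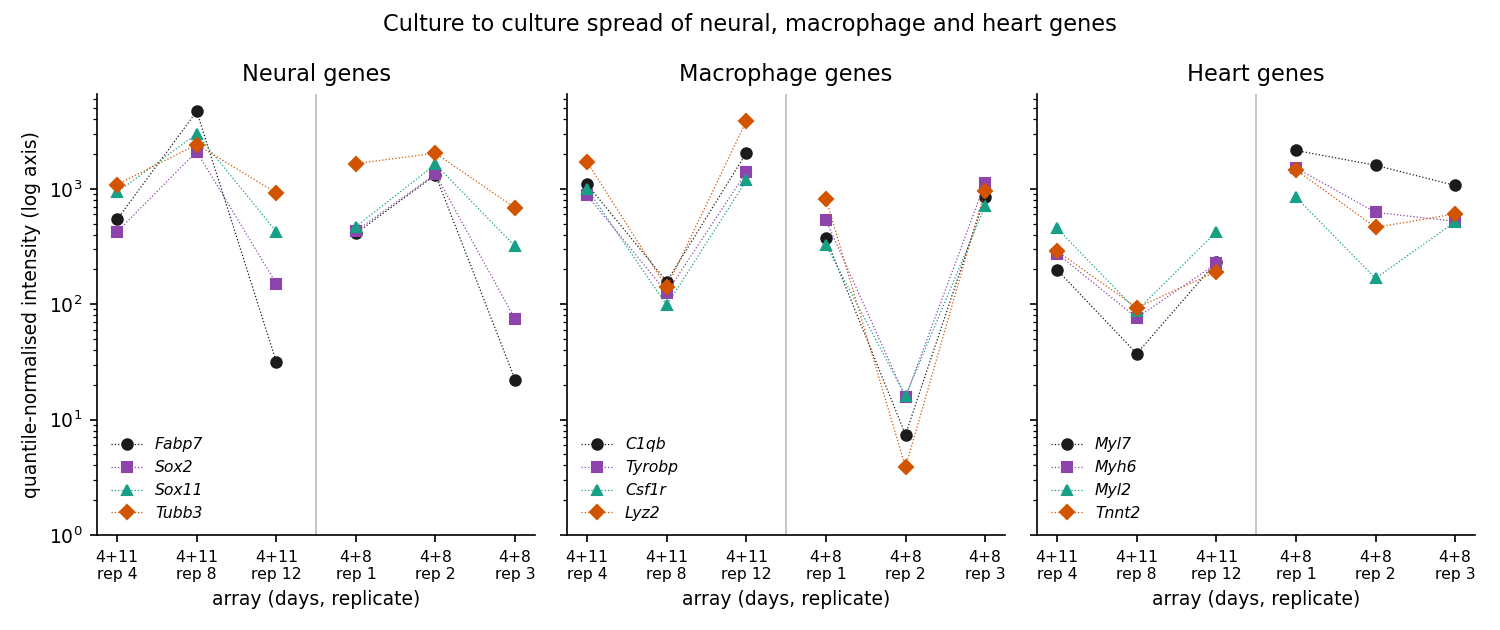
Quantile-normalised intensity (log axis) of 4 neural, 4 macrophage and 4 heart genes on each of the 6 arrays, 4+11 days at the left of each panel; dotted lines only join the points of a gene within a group. Replicate 8 at 4+11 days and replicate 2 at 4+8 days are high in neural and low in macrophage genes, and in Myl7, Myh6 and Tnnt2 all 4+11 day arrays lie below all 4+8 day arrays.

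The summed level of 7 fibroblast markers overlapped between the groups and was 18499 ± 5801 (SD, n = 3) at 4+11 days and 26026 ± 14904 (SD, n = 3) at 4+8 days (exact permutation p = 0.6). Col1a1, the main collagen, had 9853, 5311 and 6747 at 4+11 days and 10280, 2826 and 14360 at 4+8 days (adjusted p = 0.927), while a second Col1a1 probe set had no overlap but no call (−1.44, adjusted p = 0.0567). Of 39 tested matrix genes 7 rose and 3 fell, beside 12.5% and 10.8% of all genes, with a median of 0.03. Tnc, tenascin C, a matrix protein of migrating and remodelling tissue, had 1492, 868 and 1337 at 4+11 days and 262, 164 and 581 at 4+8 days and rose by 2.01 (SE 0.42, adjusted p = 0.0098, 6 arrays 0.0562). Undifferentiated cells had 846 to 1419 of Tnc and feeder cells 1525 and 1959, so the 4+8 day arrays were the ones apart. Postn and Fn1, periostin and fibronectin, fell by 1.75 and 1.32 (adjusted p = 0.0251 and 0.0164, 6 arrays 0.071 and 0.0667). Postn had 1140, 945 and 352 at 4+11 days and 2244, 2022 and 3286 at 4+8 days, so Postn and Thy1, both on the fibroblast lists, moved in opposite directions. Leaving out 1 array ended 8 of the 10 calls, all but Tnc and Thy1, with 2 rises left without 4+11 day replicate 4 and 7 falls without 4+8 day replicate 2.

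Of 17 tested matrix proteases and inhibitors 13 had a positive difference, with a median of 0.49. In limma 4 of the 17 rose and none fell, beside 12.5% higher and 10.8% lower over all genes. Besides Plat these were Plaur, the receptor of urokinase, with 130.2, 75.8 and 216 at 4+11 days and 7.83, 11.7 and 75.3 at 4+8 days (2.21, adjusted p = 0.0293, 6 arrays 0.0935), and the metalloprotease inhibitors Timp1 and Timp2 (1.43 and 1.04, adjusted p = 0.0486 and 0.0401, 6 arrays 0.149 and 0.0891). The closest values of Plaur, 75.8 and 75.3, left almost no gap between the groups. Leaving out 1 array ended the calls of Plaur, Timp1 or Timp2, and Plat kept its call throughout. Of 10 tested smooth muscle genes 1 rose and 2, Myl9 and Tpm2, fell, beside 12.5% higher and 10.8% lower over all genes, with a median of −0.12. Leaving out 1 array ended the calls of Myl9 or Tpm2. The gene that rose was Cnn2, calponin 2, by 1.68 (SE 0.24, adjusted p = 0.0026, 6 arrays 0.0346), with 991, 717 and 636 at 4+11 days and 183, 252 and 278 at 4+8 days.

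The 3 chains of collagen IX, a fibril-associated collagen of cartilage, notochord and eye, were all lower. Col9a2 had 72.5, 64.5 and 83.8 at 4+11 days and 207, 286 and 272 at 4+8 days and fell by 1.68 (SE 0.25, adjusted p = 0.00292, 6 arrays 0.0259). Col9a1 and Col9a3 fell by 1.91 and 1.19 (adjusted p = 0.00923 and 0.02, 6 arrays 0.0539 and 0.0657). No 4+11 day culture exceeded the highest undifferentiated array in any of the 3 chains. Of the 11 tested cartilage and bone genes 3 fell and none rose, beside 10.8% lower and 12.5% higher over all genes.

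Of 31 tested genes of the Wnt pathway 7 fell at 4+11 days and 1, Wnt5a, rose, beside 10.8% and 12.5% of all genes, with 3 falls without 4+11 day replicate 4 and 4 rises without 4+8 day replicate 3. Tcf7l1, a repressor at Wnt target genes, had 175, 207 and 158 at 4+11 days and 779, 780.1 and 733 at 4+8 days. It fell by 2.05 (SE 0.17, adjusted p = 0.000453, 6 arrays 0.021), but a second probe set did not (−0.10, adjusted p = 0.789). Wnt8a, a ligand of the primitive streak, read 6.28, 7.56 and 11.4 at 4+11 days and 38.3, 46.9 and 38.8 at 4+8 days, a fall of 1.6 (SE 0.18, adjusted p = 0.00109, 6 arrays 0.0259). Fzd8, a receptor, fell by 1.07 (SE 0.17, adjusted p = 0.00354, 6 arrays 0.0449) and Axin2, a target of the pathway, by 1.22 (adjusted p = 0.0225, 6 arrays 0.103). Axin2 had 24.2, 33.5 and 25.9 at 4+11 days and 81.2, 125 and 39.99 at 4+8 days, and its 4+11 day level was that of undifferentiated cells, 33.6 to 35.6, or lower. Without 4+11 day replicate 4 or 12, or 4+8 day replicate 1, Axin2 was not called.

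Among 35 tested TGF-beta and BMP genes 4 rose and 6 fell, beside 12.5% higher and 10.8% lower over all genes, with 2 rises without 4+11 day replicate 4, 7 without 4+8 day replicate 2 and 3 falls without 4+11 day replicate 12. Smad6, an inhibitor that BMP signalling induces, had 132, 90.4 and 102 at 4+11 days and 362, 268 and 338 at 4+8 days and fell by 1.51 (SE 0.20, adjusted p = 0.00174, 6 arrays 0.0345). Acvr2b, an activin receptor, and Tgfbr3, the coreceptor betaglycan, fell by 1.99 and 1.59 (adjusted p = 0.00353 and 0.00471, 6 arrays 0.042 and 0.0379). Inhbb, an activin subunit, rose by 2.52 (SE 0.39, adjusted p = 0.00362, 6 arrays 0.0291) with 28.8, 63.5 and 91.6 at 4+11 days and 1.94 to 4.06 at 4+8 days, while the other groups had 45.5 to 189.6. Tgfbi, a matrix protein induced by TGF-beta, had 1368, 649 and 738 at 4+11 days and 345, 242 and 564 at 4+8 days and rose by 1.25 (adjusted p = 0.0286, 6 arrays 0.11). The 4+11 day levels of Tgfbi were above all other arrays of the series, and the call ended without 4+11 day replicate 4 or 12 or 4+8 day replicate 1 or 2.

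Igf1, a growth factor of mesenchyme and macrophages, fell by 1.71 on one probe set (SE 0.23, adjusted p = 0.00212, 6 arrays 0.0245) and had 1.22 on another (adjusted p = 0.237), so the probe sets disagree. Igf2, at 9268, 9268 and 10280 at 4+11 days and 13690, 6270 and 15280 at 4+8 days, was among the brightest genes of both groups and did not differ beyond its spread (adjusted p = 0.746). Of 17 tested Notch genes 2 rose and 3 fell, beside 12.5% and 10.8% of all genes, and without 4+11 day replicate 4, 1 rose and 1 fell. Dtx1, a ligase and target of Notch, fell by 1.25 (SE 0.22, adjusted p = 0.00509, 6 arrays 0.046), and Adam10, the protease that cleaves Notch and N-cadherin, rose by 1.28 (adjusted p = 0.0196, 6 arrays 0.0909) with 474, 407 and 419 at 4+11 days and 106, 158 and 309 at 4+8 days. A second Adam10 probe set had a log2 difference of 0.17 (adjusted p = 0.725). Rara and Rarg, the retinoic acid receptors, rose by 1.55 and 1.28 (adjusted p = 0.00291 and 0.0124, 6 arrays 0.0347 and 0.0635), and their 4+8 day levels of 3.83 to 7.96 were under those of all other arrays.

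On their brighter probe sets Pou5f1 and Nanog were already far below the ES cell level in both groups. Some other pluripotency genes were less so. Slc2a3 had 335, 323 and 317 at 4+8 days, with 557 to 828 in undifferentiated cells. Pou5f1, Oct4, had 13.2, 7.01 and 9.11 at 4+11 days and 29.4, 22.8 and 31.7 at 4+8 days, against 1649 to 2724 in undifferentiated cells. It fell by 1.02 (SE 0.24, adjusted p = 0.0141, 6 arrays 0.0562) near the floor of detection, where the feeder arrays had 6.89 and 10.9, and a second probe set had −0.45 without a call (adjusted p = 0.389). Fgf4, a growth factor of ES cells, had 66.8, 66.3 and 68.8 at 4+11 days and 270.2, 276 and 138 at 4+8 days, with 558 to 762 in undifferentiated and 58.6 and 73.5 in feeder cells. It fell by 1.59 (SE 0.26, adjusted p = 0.00418, 6 arrays 0.0424), so its 4+11 day level was that of feeder cells and its 4+8 day level was intermediate. Nanog had 25.2, 24.5 and 11.7 at 4+11 days and 35.9, 34.5 and 32.1 at 4+8 days without a call (adjusted p = 0.0845), and its second probe set had the opposite sign (0.81, adjusted p = 0.0316). In all, 4 of 33 tested genes fell and 1 rose, beside 10.8% lower and 12.5% higher over all genes, with 7 falls without 4+8 day replicate 3.

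Phlda2, a gene expressed from the maternal copy and known for limiting placental growth, was the third largest fall. It had 37.3, 28.8 and 40.1 at 4+11 days and 552, 175 and 272 at 4+8 days, with 563 to 662 in undifferentiated and 19.8 and 24.1 in feeder cells. It fell by 2.83 (SE 0.34, adjusted p = 0.00134, 6 arrays 0.0274) and kept its call in every alternative fit. Slc22a18, Kcnq1 and Tssc4, which lie in the same imprinted cluster, fell by 0.92, 1.02 and 0.71 (adjusted p = 0.00521, 0.01 and 0.0212, 6 arrays 0.0517, 0.0583 and 0.097). The call of Tssc4 ended without 4+11 day replicate 4 or 12. Cdkn1c, a further maternally expressed gene of that cluster, overlapped between the groups (log2 difference 0.01, adjusted p = 0.988). Of 15 tested maternally expressed genes 4 fell and none rose, beside 10.8% lower and 12.5% higher over all genes. Of 11 paternally expressed ones none fell and 1, Ndn, rose by 0.67 (adjusted p = 0.0451, 6 arrays 0.135). Leaving out any 1 of the 11 arrays ended the call of Ndn, and its second probe set had a difference of 0.01 (adjusted p = 0.975).

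Of 22 tested Hox genes 5 fell at 4+11 days and 1 rose, beside 10.8% and 12.5% of all genes, and 19 of 22 differences were negative. The number that fell was 2 without 4+11 day replicate 4 and 1 in the fit on 6 arrays. Hoxa4 had 216, 168 and 221 at 4+11 days and 569, 593 and 485 at 4+8 days and fell by 1.41 (SE 0.22, adjusted p = 0.00369, 6 arrays 0.033). Hoxb1, a hindbrain gene, had 18.2, 16.5 and 15.8 at 4+11 days and 88.4, 71.4 and 30.4 at 4+8 days, a fall of 1.42 (adjusted p = 0.0123, 6 arrays 0.0667), and its 4+11 day level was below that of every other array. The most posterior member called, Hoxa11, was the one that rose, by 1.21 (adjusted p = 0.0134, 6 arrays 0.0796), and without 4+11 day replicate 4 it was not called.

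Of 37 tested proteasome subunits 7 rose and 2 fell, with a median of 0.26, and of 69 genes of oxidative phosphorylation 7 rose and 12 fell, beside 12.5% higher and 10.8% lower over all genes. Without 4+11 day replicate 4 these counts were 3 and 0 for the proteasome and 1 and 5 for oxidative phosphorylation. Psmb5, a catalytic proteasome subunit, had 907, 920 and 989.8 at 4+11 days and 534, 410.3 and 402 at 4+8 days and rose by 1.06 (SE 0.17, adjusted p = 0.0037), but a second Psmb5 probe set fell by 1.20 (adjusted p = 0.00564). Of 36 tested splicing factors 4 rose and 4 fell, close to the 12.5% and 10.8% of all genes, and 2 or 7 rose without 4+11 day replicate 4 or 4+8 day replicate 2. Sf3b1 rose by 1.88 and Sf3b2, of the same complex, fell by 1.31 (adjusted p = 0.00526 and 0.0015, 6 arrays 0.0464 and 0.0347), but a second Sf3b1 probe set had 0.20 without a call (adjusted p = 0.51). In 16 of the 19 oxidative phosphorylation calls the 4+8 day arrays lay beyond all others, as in 7 of the 9 proteasome calls. Over all genes the 4+8 day arrays alone did so in 502 of 829 rises and 493 of 718 falls. Both groups stood apart in a further 9 rises and 18 falls.

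**Figure D5:**
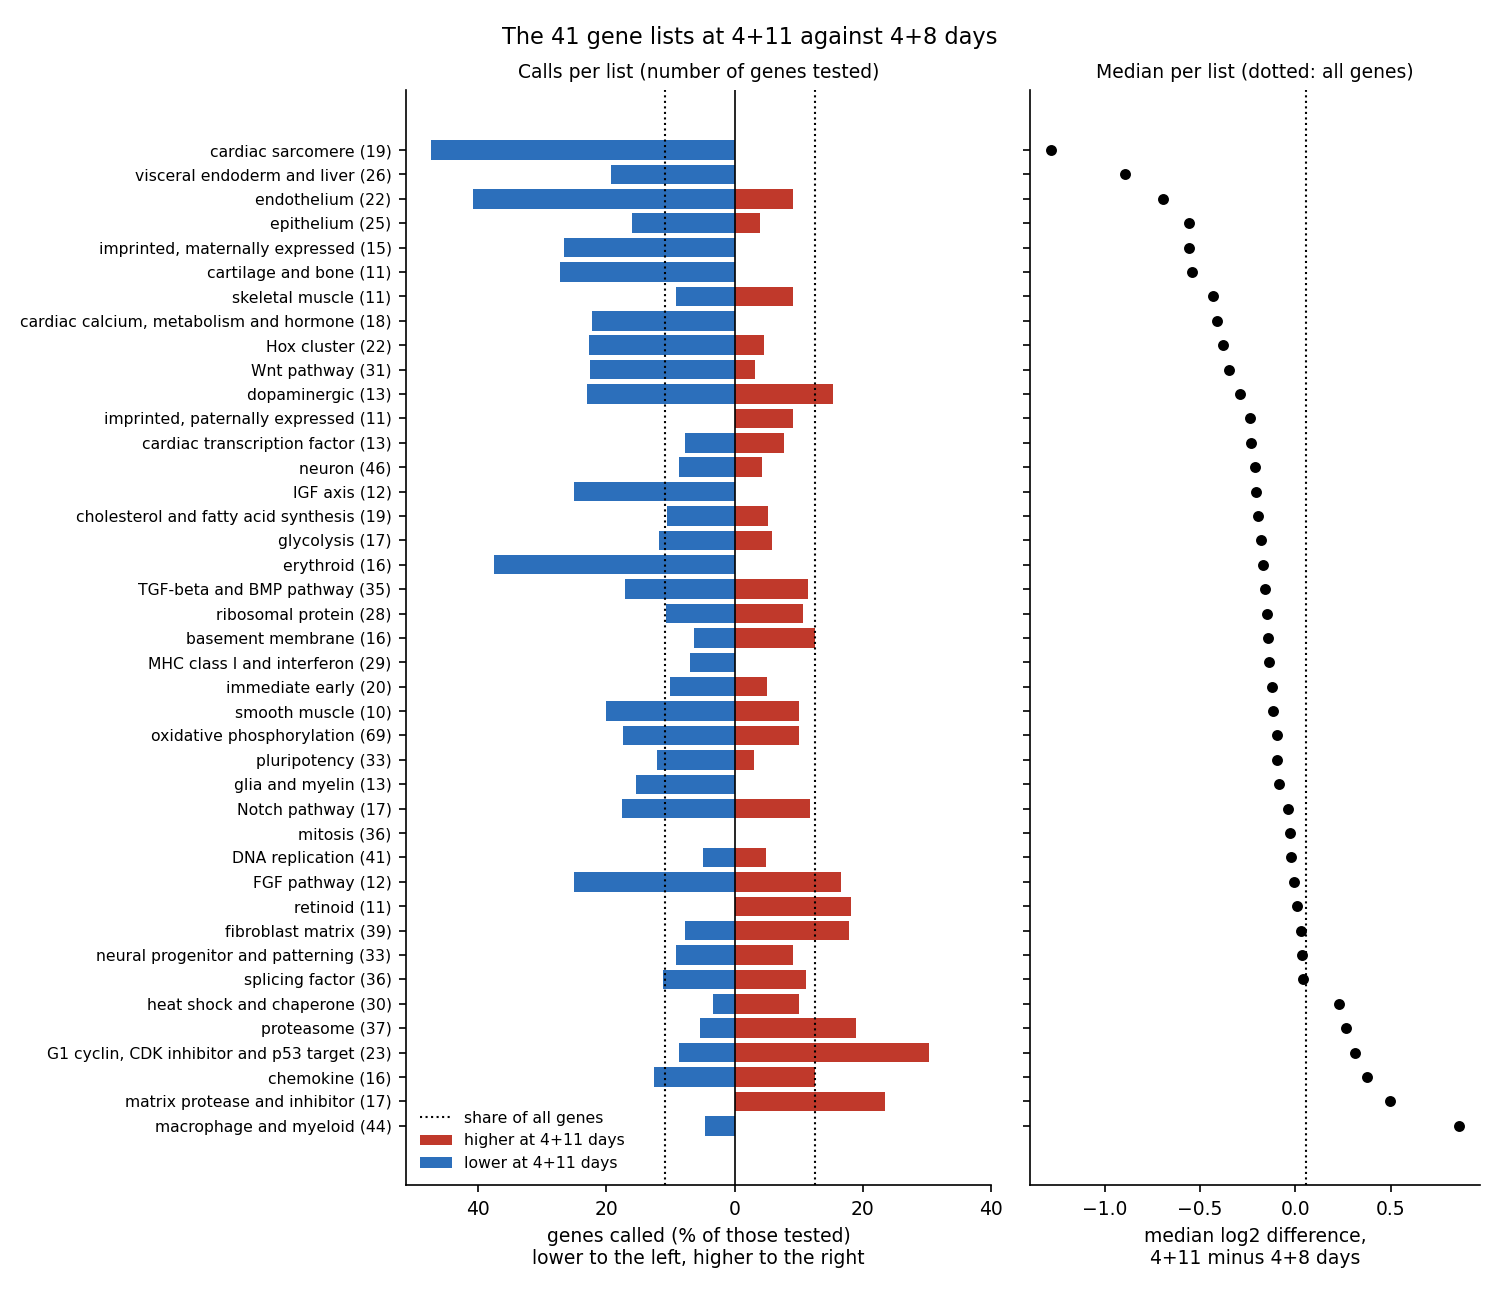
For 41 gene lists, the share of tested genes called lower (left) and higher (right) at 4+11 days, in %, and at the right the median log2 difference, 4+11 minus 4+8 days; dotted lines give all 6650 genes, at 12.5% higher, 10.8% lower and a median of 0.05. The cardiac sarcomere list has the lowest median, −1.29, and the macrophage list the highest, 0.86, although none of its genes rose.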

How the data were processed

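Each of 11 Affymetrix MG_U74Av2 arrays held RNA of 1 culture. The deposited values are probe set intensities on a linear scale, made by the authors with software not given in the sources used here; per the file headers 12488 probe sets were measured, of which 66 are controls. The number of arrays limits the precision. All 11 arrays were quantile normalised, and log2(intensity + 8) was tested, 8 being the rounded 20th percentile, so folds of dim genes are understated. The filter asked for more than 33.4, the 40th percentile, on 2 or more arrays and was passed by 8940 probe sets. Outside the controls, the platform annotation gives 1 symbol for 10833 probe sets (10817 found in RefSeq), several for 396 and none for 1193. Where a gene has several probe sets, the brightest one stands for it in the counts of lists.

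The fit used limma 3.58.1 in R 4.3.3 (lmFit and eBayes, 4 groups, 7 residual and 3 prior degrees of freedom), two-sided, with Benjamini-Hochberg adjustment over the 8940 probe sets, and was tested on simulated data. Every adjusted p comes from it or from the same fit on 6 arrays. A call is an adjusted p below 0.05. Scan session is confounded with group and no batch term could be fitted.

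The comparison, the 41 lists and the rule for named genes were chosen with earlier results of these data known. By that rule the text names from the 12 largest rises and 12 largest falls among called genes without overlap, from the 3 largest called changes of a list, and from 24 markers. Other genes, among them Foxq1, Ednrb, Cd200, Hmga2, Cdh2, Fabp7, Lyz2, Myl2, Actc1 and Igf2, were chosen after their values were seen. In all, 23 alternatives were tried.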

Additional observations from a re-analysis of the deposited data

How the results depend on the processing

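Scaling set the balance of calls. With the values as deposited, 193 probe sets were higher and 2886 lower (6.27% of calls higher, against 53.1% in the reported fit), and the median of all probe sets moved to −0.57 from 0.05. With median scaling 2177 were higher and 784 lower (73.5% higher, median 0.31). Quantile normalization over the 6 arrays gave 229 and 253, the fit on 6 arrays 255 and 280, and leaving out the 2 arrays washed under another protocol 440 and 469; all 3 have fewer arrays to set the spread. Leaving out 1 array gave 496 to 1275 higher and 473 to 1145 lower. Other pseudocounts, filters, cyclic loess, array weights and a trended prior gave 908 to 1127 higher and 681 to 1017 lower. Of 259 called genes followed through the alternatives, 63 kept call and direction in all, 169 lost the call in the fit on 6 arrays and 69 with the values as deposited. With the values as deposited the sign turned for Angpt2 (−0.30), Ccl25 (−0.064), Mfap5 (−0.081), Rb1 (−0.11) and Rplp0 (−0.73), and with median scaling for Atp5g2 (0.053), Atp5o (0.016), Cox7a2l (0.034), Ndufb7 (0.037), Ndufb8 (0.016) and Psma5 (0.079); the cause was not tested beyond the shift of the median. No paired analysis was possible because the 2 groups share no replicate numbers.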
